A study of Mus musculus with 5 samples.

Results

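Atoh1 was followed as 1 of the 15971 genes measured, over 6987 cells isolated from embryonic mouse cerebellum, together with the genes whose levels rose or fell with it from cell to cell. Cells of each library were placed in 4 bins by their natural log (ln) value of Atoh1: 0, above 0 to 1, above 1 to 2, and above 2. The bins rest on Atoh1 itself, so its level across them is a description, whereas no other gene entered the choice of bins. Atoh1 (ENSMUSG00000073043.5) lies on mouse chromosome 6 from 64729125 to 64731245 on the plus strand of mm10, in 1 exon that holds the coding sequence from 64729323 to 64730375.

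The series concerns the rhombic lip origin of Group 3 and Group 4 medulloblastoma, a tumour of the cerebellum. By their titles, 2 libraries came from the rhombic lip (RL) at embryonic day 13 (RL e13), 2 from the RL at embryonic day 14 (RL e14), and 1 from EomesCreER mice at embryonic day 16 (EomesCreER e16). The name EomesCreER denotes an inducible Cre recombinase driven by Eomes. The labels name cerebellum as the tissue of all 5 libraries and state no genotype for the RL libraries, no strain and no agent. No source used here says how the e16 cells were selected or what UT in the RL titles stands for. For RL e13 replicate 2 the title gives e13 and the age tag e14, and the title was followed. The cell table names 1 batch that matches no title, and it was taken as the e16 library because the other 4 matched the RL libraries. The labels do not state whether the libraries of a group derive from different animals. The p-values therefore reflect library-to-library spread alone, which may be technical.

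Atoh1 is a basic helix-loop-helix (bHLH) transcription factor that pairs with E proteins and binds E-box sequences in DNA. The rhombic lip, a dorsal germinal zone beside the fourth ventricle, gives rise to the glutamatergic neurons of the cerebellum, and Atoh1 is switched on in cells that leave it. Granule cell progenitors keep Atoh1 on while they divide and lose it as they become neurons. Id proteins sequester E proteins, and Notch effectors of the Hes family repress proneural genes.

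The libraries held 706 to 2676 cells and 13607965 to 33502151 unique molecular identifiers (UMIs, which count RNA molecules), with a median per cell of 10346 UMIs in the e16 library and 15855 to 19970 in the RL libraries. RL e13 replicate 1 stood apart, since 97.5% of the 479 cells of cluster 5 in an unsupervised clustering came from it. 6 cell barcodes occurred in more than 1 library. Depth moved with Atoh1: the median was 14831.5 to 17759.5 UMIs in RL cells without Atoh1 and 15912.5 to 20734 in those above an ln value of 2. Each comparison was therefore repeated with every cell thinned to 10000 UMIs.

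Atoh1 was an abundant transcript of the RL libraries and a scarce one of the e16 library. Its mean over cells, in counts per 1000000 UMIs (CPM), was 139 in RL e13 replicate 1, 255 in RL e13 replicate 2, 265 in RL e14 replicate 1 and 226 in RL e14 replicate 2, against 11.9 in the e16 library. RL e13 replicate 1 was the lowest of the RL libraries, and the other 3 lay close together. By mean level Atoh1 ranked between 587 and 1313 among the genes of an RL library and 7759 in the e16 library. Single RL cells carried up to 43 Atoh1 UMIs, and no e16 cell carried more than 6.

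The share of cells with an Atoh1 UMI was 45.6% in RL e13 replicate 1 (95% Wilson interval 42.0 to 49.3). It was 65.9% in RL e13 replicate 2 (63.7 to 68.0), 71.9% in RL e14 replicate 1 (69.1 to 74.5) and 66.1% in RL e14 replicate 2 (62.6 to 69.4). In the e16 library 276 of 2676 cells had Atoh1, a share of 10.3% (9.22 to 11.5). Thinning left out 34 to 87 cells of each RL library and 1153 e16 cells, and gave 39.1%, 61.2%, 68.1%, 61.9% and 11.3% in the same order. Intervals cover counting error only. No cell type that must lack Atoh1 was named here to set a floor from free RNA. The lowest share in a cluster with 20 or more cells of a library was 4.12% (2.96 to 5.70), in 826 e16 cells of cluster 0 with a median of 9734.5 UMIs.

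The top bin, above an ln value of 2 or 639 CPM, held 6.80% of RL e13 replicate 1 (48 cells), 12.4% of RL e13 replicate 2 (225 cells), 11.3% of RL e14 replicate 1 (118 cells) and 9.18% of RL e14 replicate 2 (68 cells). Mean Atoh1 in this bin was 929, 842, 854 and 809 CPM in the same order. None of the 2676 e16 cells reached the top bin, which allows a share of up to 0.112%.

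**Figure D1:**
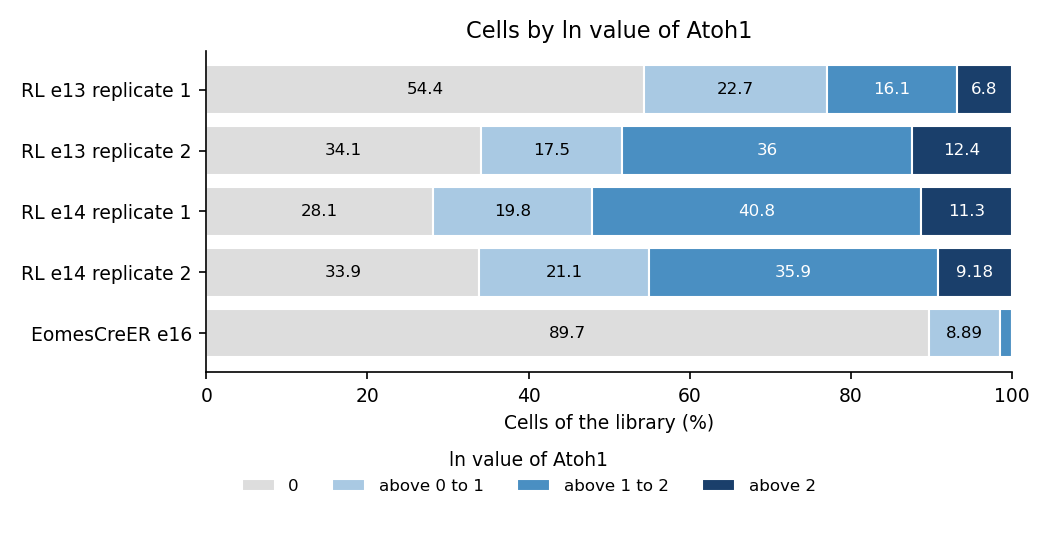
Share of the cells of each library (x axis, %) in the 4 bins of the ln value of Atoh1. Cells without Atoh1 made up 28.1% to 54.4% of the RL libraries and 89.7% of the e16 library, which has no cell in the top bin.

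The e14 libraries had a mean of 245 ± 27.6 CPM of Atoh1 (SD, n = 2) and the e13 libraries 197 ± 82.0 (SD, n = 2). The difference of 48.8 CPM was smaller than the spread between the e13 libraries (exact permutation test, two-sided, p = 0.667). The share of cells with Atoh1 was 69.0% ± 4.08 at e14 and 55.8% ± 14.3 at e13 (difference 13.3 percentage points, exact permutation test, two-sided, p = 0.333). Both e14 libraries lay above both e13 libraries, but RL e14 replicate 2 (66.1%) barely exceeded RL e13 replicate 2 (65.9%). The Wilson intervals of these libraries overlapped. With 2 libraries against 2, no p below 0.333 can be reached. Without RL e13 replicate 1 the difference in CPM changed sign, to -9.21, and that in share was 3.11 percentage points.

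Atoh1 was highest in cells led by Pvalb, Gadd45g and Fst. The cells formed 19 clusters, made without Atoh1 and without the genes of the lists described below, and clusters are called here by number and leading genes. Levels are ranges over the RL libraries with 20 or more cells in the cluster. Cluster 12, led by Pvalb and Gadd45g, had 623 to 696 CPM of Atoh1, and Atoh1 was found in all 316 of its cells. Cluster 15, led by Ung, Pvalb and the replication licensing gene Cdc6, had 421 to 495 CPM, and all 208 of its cells had Atoh1. The ranges of these clusters did not overlap. Cluster 8, led by Krt19, Vat1l and Ccnd2, had 325 to 503 CPM, cluster 7, led by Insm2, Ntf3 and Tlx3, 336 to 340.3, cluster 4, led by histone genes, 289 to 385, and cluster 6, led by the mitotic genes Cenpa and Cdc20, 277 to 307. Cluster 8 overlapped clusters 15, 7 and 4, cluster 7 overlapped clusters 8 and 4, and cluster 6 overlapped cluster 4. Library by library, cluster 8 lay above cluster 4 and cluster 4 above cluster 6 in every RL library shown. The last pair was closest in RL e14 replicate 2, at 289 and 283 CPM. The other overlapping pairs changed order between libraries. No order of clusters was tested.

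The other clusters lay lower. Cluster 5, mostly RL e13 replicate 1, had 126 CPM of Atoh1 in that library. Cluster 2, led by Cbln2, had 31.2 to 90.7 CPM, cluster 14, led by Ttr, Htra1 and Kdr, 21.8 to 64, cluster 1, led by Ednrb and Pdlim3, 30.8 to 46, and cluster 13, led by the mitotic genes Aspm and Cenpf, 25.8 to 49.7. These 4 ranges overlapped one another. Clusters 17 and 18, with 85 and 32 cells, averaged 22.2 and 14.9 CPM. The 6 clusters in which over 90% of cells were from the e16 library had a mean of 4.38 to 27.7 CPM over all their cells. The highest of them was cluster 16, led by Slit1, where 22.8% of 202 e16 cells had Atoh1 (95% Wilson interval 17.5 to 29.0). In the cycling clusters 4 and 6 the e16 cells had 55.7 CPM (38 cells) and 47.4 CPM (61 cells), below every RL library shown there.

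**Figure D2:**
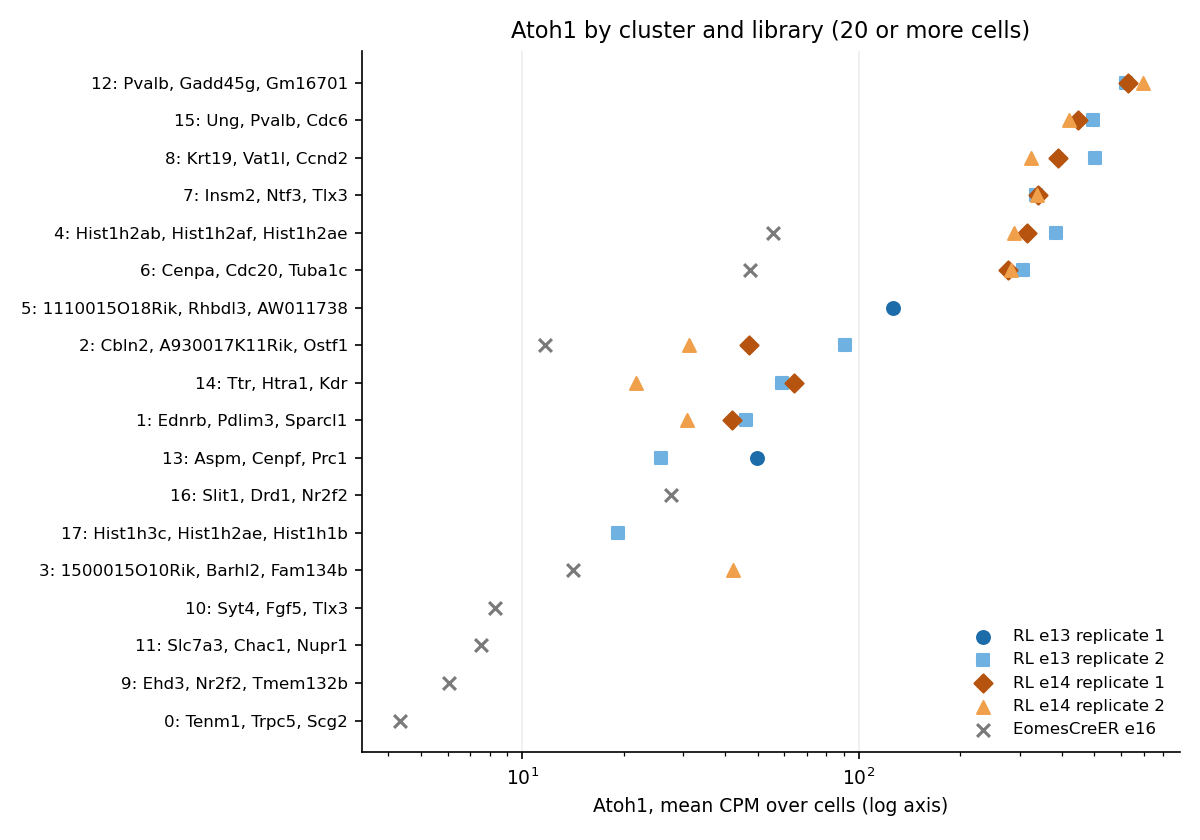
Mean Atoh1 level (x axis, CPM, log scale) in each cluster, called by its leading genes, with 1 point for each library that had 20 or more cells there. Cluster 12 stands highest, at 623 to 696 CPM, and the e16 points lie below the RL points in each cluster that shows both.

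The cells of the top Atoh1 bin came largely from a few clusters. Cluster 12, led by Pvalb, supplied 35.1%, 37.3% and 35.3% of them in RL e13 replicate 2, RL e14 replicate 1 and RL e14 replicate 2. In RL e13 replicate 1 it supplied 4.17%, and cluster 5 supplied 54.2%. Among cells without Atoh1 in the same 3 libraries, cluster 1, led by Ednrb, supplied 47.4%, 26.9% and 36.3%, and cluster 2, led by Cbln2, 18.5%, 31.6% and 35.9%. Cells without Atoh1 were thus a mix of groups with high Sox2 (581 CPM in cluster 1) and with high Gap43, an axonal growth gene (5092 CPM in cluster 2), which later comparisons separate.

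Among the genes whose pattern was most like that of Atoh1 were Alcam, Mycl, Hes6, Btbd11, Thsd7b, Cd63 and Igdcc4. Likeness was the Pearson correlation of log2(CPM + 5) with Atoh1 over 41 profiles of a cluster in a library. The profiles share libraries and depth, and the correlation is a description. It was 0.915 for the cell adhesion gene Alcam, 0.912 for the Myc family gene Mycl and 0.909 for the bHLH gene Hes6. Over the 32 RL profiles alone the highest of these 7 was Hes6, at 0.923. Between single cells of an RL library the correlation of ln values was 0.625 to 0.727 for Hes6, 0.471 to 0.659 for the tetraspanin gene Cd63 and 0.178 to 0.502 for Alcam.

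In all cells of the RL libraries, Pvalb, Fst, Gadd45g and the Notch ligand gene Dll1 rose with Atoh1, and the radial glia gene Fabp7 and the Notch effector gene Hes5 fell. Mean levels per bin were put on a log2(CPM + 5) scale, which understates changes of low genes, and 1 slope per bin step was fitted in each library. Slopes were tested against 0 with limma over the 4 libraries, with Benjamini-Hochberg adjustment over all genes. Of 8411 genes tested, 281 (3.34%) rose and 629 (7.48%) fell, and the median slope of all genes was -0.02. With TMM scaling, which aligns profiles on a trimmed mean, the split was 415 higher and 480 lower. With thinned cells 218 rose and 499 fell, and 600 calls (65.9% of the 910) were shared. Genes named by slope here and in the gated sets are those with the largest slopes among called genes that met a rule on level, described with the processing. The counts were 780 and 1432 without RL e13 replicate 1, 68 and 142 without RL e13 replicate 2, 69 and 148 without RL e14 replicate 1, and 133 and 297 without RL e14 replicate 2.

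Pvalb, which encodes the calcium buffer parvalbumin, had the highest slope of the genes named. It stood at 15.6, 19.5, 23.7 and 49.3 CPM without Atoh1 in RL e13 replicate 1, RL e13 replicate 2, RL e14 replicate 1 and RL e14 replicate 2, and at 137, 757, 658 and 1222 CPM in the top bin. Every top bin lay above every bin without Atoh1, and RL e13 replicate 1 was lowest at both ends. The slope was 1.39 ± 0.12, adjusted p = 0.0023, or 2.62-fold per bin (limma, ± SE).

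Gadd45g, a growth arrest and stress response gene, rose more evenly. In the same order of libraries it went from 96, 104, 93.6 and 169 CPM without Atoh1 to 761, 1029.9, 846 and 1149 CPM in the top bin. Its slope was 1.04 ± 0.04, adjusted p = 1.9e-04 in limma, and single libraries ranged from 0.92 to 1.11.

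Fst encodes follistatin, a secreted antagonist of activins and BMPs. It was at 12 to 17.2 CPM without Atoh1 and at 94.2, 344, 256 and 324 CPM in the top bin, with RL e13 replicate 1 again lowest at the top (limma slope 1.24 ± 0.09, adjusted p = 0.0016). Thsd7b, a thrombospondin domain gene, was at 0.967 to 10.9 CPM without Atoh1 and at 69 to 149 in the top bin (limma slope 1.21 ± 0.05, adjusted p = 2.2e-04). The other 6 of the 10 risers named by slope were Rab15, a small GTPase gene, Sema7a, a semaphorin gene, Hsd11b2, which encodes a glucocorticoid-inactivating enzyme, Btbd11, the co-repressor gene Cbfa2t3 and the cadherin-related gene Cdhr1. Their slopes ran from 0.83 (Cdhr1) to 1.01 (Rab15) and were positive in 4 of 4 libraries. The call for Cbfa2t3 (adjusted p = 0.0075 in limma) was lost without RL e13 replicate 2, where its adjusted p was 0.053, the highest over its alternatives (lowest 6.5e-06).

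The E-box CAGCTG was searched for around the starts of these genes, since it is a form that Atoh1 and its E protein partners can bind. RefSeq promoter windows (GRCm38.p6) of 250 bases before to 50 after each start were read, and CAGCTG is the same on both strands. Of the 10 risers named by slope 8 had an entry, and 6 of them held the motif (Thsd7b, Gadd45g, Rab15, Sema7a, Cbfa2t3 and Cdhr1). Of the 10 fallers so named 9 had an entry and 2 held it. Yet the motif was present in 19.4% of the 206 genes that rose and 21.3% of the 475 that fell with an entry, beside 16.3% of the 6509 tested genes and 18.3% of all 27025 genes. In the cells with Barhl1 described further on, 13.8% of the 1489 risers and 22.2% of the 1635 fallers with an entry held it, beside 16.5% of the 6420 tested genes. Stretches around the motif are printed, in lower case with CAGCTG in capitals and 5′ to 3′ on the strand of each gene, for 5 risers named by slope and for Hes6, Dll1 and Nkd1, whose values follow.

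Thsd7b (chr1:129273280-129273303, plus strand): agggaggggcaccggagCAGCTGc
Gadd45g (chr13:51846603-51846642, plus strand): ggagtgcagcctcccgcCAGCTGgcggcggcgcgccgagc
Rab15 (chr12:76822532-76822571, minus strand): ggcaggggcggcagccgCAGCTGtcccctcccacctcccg
Sema7a (chr9:57939902-57939941, plus strand): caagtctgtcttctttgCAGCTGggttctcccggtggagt
Cbfa2t3 (chr8:122699233-122699272, minus strand): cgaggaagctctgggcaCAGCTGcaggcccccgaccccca
Hes6 (chr1:91414187-91414226, minus strand): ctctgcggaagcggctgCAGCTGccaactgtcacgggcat
Dll1 (chr17:15377042-15377081, minus strand): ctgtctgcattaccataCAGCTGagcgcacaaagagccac
Nkd1 (chr8:88527552-88527591, plus strand): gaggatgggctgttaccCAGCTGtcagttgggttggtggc

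A match is a description of the letters and not evidence of binding. The window of Atoh1 itself (chr6:64728875-64729174, plus strand) held no E-box of the general form CANNTG, which 75.0% of the 27025 genes had in theirs.

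Among the genes that fell, Fabp7, which encodes the brain lipid-binding protein of radial glia, had the highest level. It went from 4133, 4644, 2590.5 and 3361 CPM without Atoh1 to 904, 269.7, 202 and 189 CPM in the top bin, in the same order of libraries. The end bins did not overlap, and RL e13 replicate 1 kept the most Fabp7 in its top bin. The slope was -1.14 ± 0.10, adjusted p = 0.0023 in limma.

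The endothelin receptor gene Ednrb had the lowest slope of the genes named, -1.41 ± 0.11, adjusted p = 0.0016 in limma. It stood at 71.1, 158, 117 and 216 CPM without Atoh1 and at 3.75, 1.86, 1.58 and 0.780 CPM in the top bin. The BMP family ligand gene Gdf10 (-1.22 ± 0.07), the basement membrane gene Nid1 (-1.18 ± 0.09), Ttyh1 (-1.17 ± 0.10), the lipid phosphatase gene Plpp3 (-1.15 ± 0.07), the retinoid receptor gene Rxrg (-1.12 ± 0.06) and Pgm5 (-1.02 ± 0.06) fell in 4 of 4 libraries. The neuronal stathmin gene Stmn4 also passed (limma slope -1.05 ± 0.22, adjusted p = 0.036), although its slope was -0.15 in one library and -1.55 in another. That call was lost when any 1 library other than RL e13 replicate 1 was left out (adjusted p over its alternatives 7.1e-05 to 0.18).

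**Figure D3:**
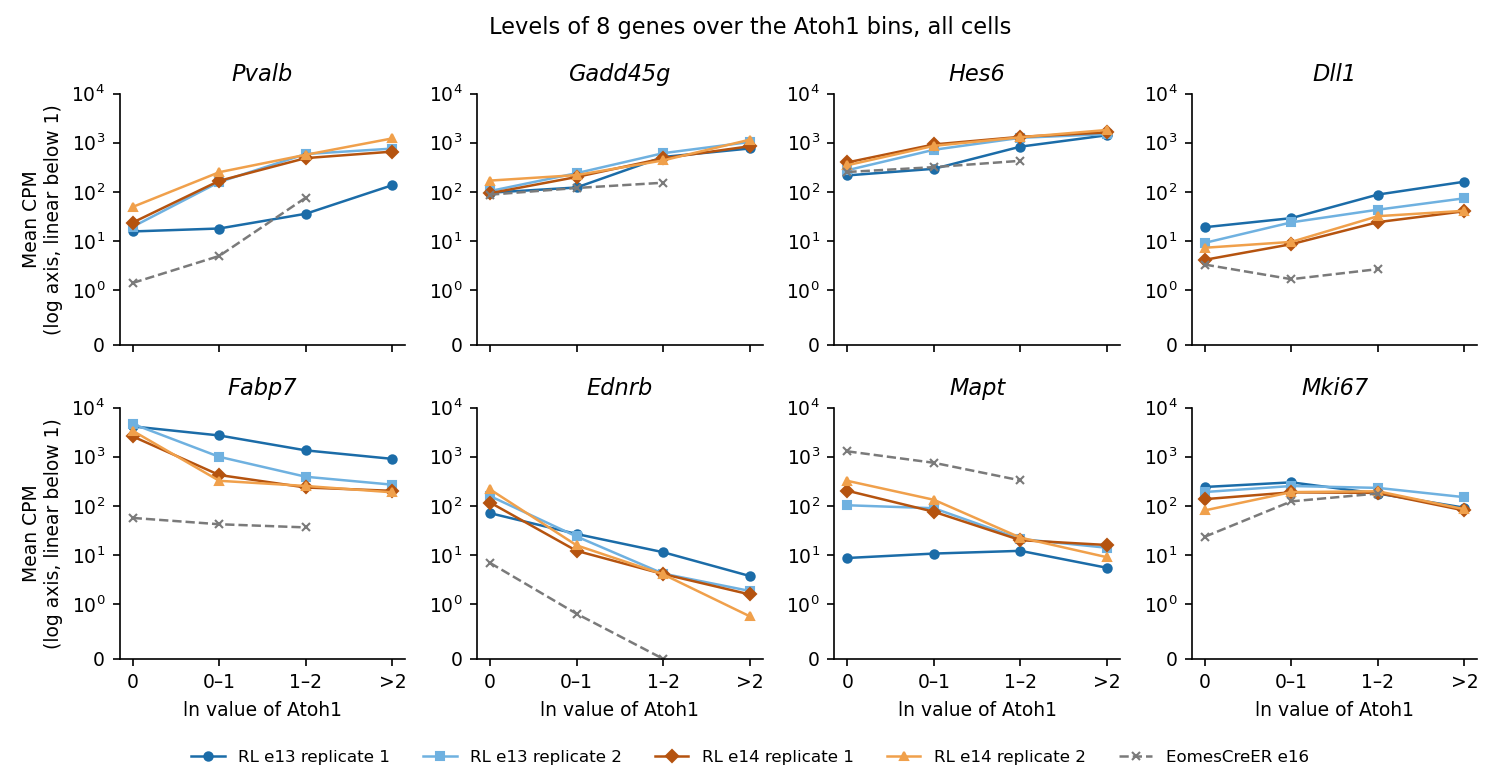
Mean level (y axis, CPM, log scale that is linear near 0) of 8 genes in the Atoh1 bins (x axis, ln value), with 1 line for each library. Pvalb, Gadd45g, Hes6 and Dll1 are higher and Fabp7 and Ednrb lower in the top bin than without Atoh1 in every RL library, and Mki67 is highest in a middle bin in all 4.

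Of 14 Notch genes tested, 4 rose and 7 fell, beside 3.34% and 7.48% of all genes, with a median slope of -0.36. Those shares of all genes are the background for each list in all cells. The ligand genes Dll1 and Dll3, the Hes antagonist gene Hes6 and Mfng, a Fringe glycosyltransferase gene, rose. The receptor genes Notch1, Notch2 and Notch3, the effector genes Hes1, Hes5 and Nrarp, and Lfng, also a Fringe glycosyltransferase gene, fell.

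Dll1 went from 19.1, 9.16, 4.14 and 7.29 CPM without Atoh1 to 161, 73.9, 40.3 and 41.2 in the top bin (limma slope 0.83 ± 0.05, adjusted p = 0.001). Hes6 went from 216, 275, 396 and 348 to 1416, 1492, 1615 and 1813 CPM (0.80 ± 0.05, adjusted p = 0.001 in limma). Hes5 went from 493, 477, 299.8 and 353 to 122, 30.4, 11.5 and 19.7 CPM (-1.12 ± 0.12, adjusted p = 0.004 in limma). For each of these 3 genes the end bins did not overlap. The Dll1 call was lost when the e16 library was added.

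Of 12 described Atoh1 targets tested, 5 rose (Hes6, Dll1, Dll3, Rab15 and Rbm24) and Rassf4 fell, beside 3.34% and 7.48% of all genes. Their median slope was 0.25. Barhl1, which encodes a homeobox factor of granule cells, did not pass in limma (0.73 ± 0.19, adjusted p = 0.062), with 3.86, 98.9, 182 and 167 CPM without Atoh1 and 172, 366, 405 and 488 in the top bin. It was higher in the top bin in 4 of 4 libraries, and passed without RL e13 replicate 1, with TMM scaling, with the end bins alone and with a library block (adjusted p over its alternatives 3.9e-04 to 0.19). Gli2 (0.10 ± 0.06, adjusted p = 0.28), Barhl2 (-0.01 ± 0.11, adjusted p = 0.95), Nhlh1 (-0.34 ± 0.18, adjusted p = 0.28), Nhlh2 (-0.59 ± 0.22, adjusted p = 0.15) and Selm (0.05 ± 0.10, adjusted p = 0.8) did not pass in limma.

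Among 6 E protein and Id genes, Id2 rose, and Tcf12, Id1 and Id4 fell. Id1 averaged 605 CPM without Atoh1 and 197 in the top bin (limma slope -0.78 ± 0.14, adjusted p = 0.023), and Id4 29.2 and 2.84 CPM (-0.65 ± 0.06, adjusted p = 0.0031). Among 8 proneural and related bHLH genes, Olig3, an early rhombic lip gene (0.49 ± 0.05, adjusted p = 0.0031), and Bhlhe22 (0.49 ± 0.06, adjusted p = 0.0066) rose. Among 7 described regulators of Atoh1, Ctnnb1 rose, and Zic1, Hes1, Hes5 and the stem cell gene Sox2 (-0.42 ± 0.06, adjusted p = 0.0089 in limma) fell.

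Called Wnt genes moved in both directions, and called BMP genes mostly fell. Of 9 Wnt genes the Wnt target Sp5 (0.70 ± 0.05, adjusted p = 0.0014 in limma) and the feedback inhibitor gene Nkd1 (0.73 ± 0.03, adjusted p = 3.1e-04) rose, and Wnt1, Rspo1 and Axin2 fell. Of 10 BMP genes Smad7 rose, and Gdf10, Bmpr2, Msx1, Msx2 and Msx3 fell. Of 13 granule cell progenitor genes Fst, Cxcr4, Mfap4 (0.53 ± 0.09) and Ccnd2 (0.40 ± 0.09) rose, and Zic1 and Zic2 fell. Of 9 hedgehog receptors and targets Cdon alone passed, and it fell (-0.61 ± 0.05, adjusted p = 0.0017 in limma). The cell cycle exit list also holds cyclin and kinase genes, among them Ccnd2 and Cdk6. Of its 11 tested members Ccnd2 and Gadd45g rose and Cdkn1b and Cdk6 fell. Of 11 neuronal differentiation genes Mapt fell, a count that was 10 without RL e13 replicate 1. None of 9 primary cilium genes passed in limma, where 3.34% of all 8411 genes rose and 7.48% fell. At an unadjusted limma p under 0.05 there were 2419 of all genes.

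Several of these calls rested on the number of libraries. Those for Id1, Fosb, Mfap4, Ccnd2, Ccne1, Mcm6, Mapt, Zic1 and Rbm24 were lost when any 1 library other than RL e13 replicate 1 was left out. Those for Bhlhe22, Dll3, Rassf4, Tcf12, Msx1 and Jun were lost without RL e13 replicate 2 or without RL e14 replicate 1, and those for Hes1 and Sox2 without RL e14 replicate 1. Those for Bhlhe22, Ccnd2, Ccne1, Cdk6, Dll3, Gdf10, Hes1, Id1, Jun, Mcm6, Msx1, Msx3, Rassf4, Sox2, Sp5, Stmn4 and Tcf12 were lost when the e16 library was added. Those for Ccnd2, Ccne1, Dll3, Mapt, Mcm6 and Msx1 were lost when cells with Mki67 or Top2a were left out, and that for Ccne1 also with thinned cells.

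Cell cycle genes did not follow Atoh1 along a line in all cells. Of 15 S phase genes Mcm6 and Ccne1 rose, and none of 15 G2 and M phase genes passed in limma. With thinned cells 4 G2 and M phase genes fell, and without RL e13 replicate 1 9 S phase genes rose. No S phase gene rose in limma without any 1 of the other 3 libraries. Mki67, a marker of cycling cells chosen after its values had been seen, stood at 242, 191, 137 and 80.9 CPM without Atoh1, at 301, 254, 189 and 191 in the bin above 0 to 1, at 178, 232, 184 and 198 in the bin above 1 to 2 and at 91.8, 150.2, 80.6 and 85.4 in the top bin. It was highest in a middle bin in all 4 libraries, and its slope did not pass (-0.20 ± 0.08, adjusted p = 0.16 in limma). Of 8412 genes above the filter, 472 were higher in a middle bin than at both ends in every RL library. Whether that number is more than bins in random order would give was not tested. The mitotic genes Ube2c, Cenpe, Aurka and Cenpf were among the 15 with the largest excess over the end bins. They were named after their values had been seen.

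Dissociation and immediate early genes moved with Atoh1, and their part in the results was not tested. All 8 tested fell, with a median slope of -0.37. Fos stood at 448 to 799.8 CPM without Atoh1 and at 163 to 253 in the top bin (limma slope -0.53 ± 0.04, adjusted p = 0.002). The count of 8 was 3 without RL e13 replicate 2, 4 without RL e14 replicate 1 and 5 without RL e14 replicate 2. Markers of other cell types moved as well, and their part was not tested either. The 10 radial glia markers summed to 6864 to 9932 CPM without Atoh1 and to 1778 to 3546 in the top bin, with none at 0. The 7 postmitotic neuron markers summed to 379 to 7526 and to 672 to 1015 CPM, and the 7 GABAergic lineage markers to 87.9 to 222 and to 22.7 to 35.7, with Pax2 at 0 in the top bin. Rhombic lip progenitor markers summed to 990.1 to 1391 without Atoh1 and 443 to 1143 CPM in the top bin, granule cell progenitor markers other than Atoh1 to 766 to 1654 and 1143 to 1666, and granule neuron markers to 288 to 944 and 347 to 478. Sums of the Eomes lineage (81.8 to 333 and 97.7 to 207), glutamatergic nuclei (62.7 to 135 and 20.5 to 188) and roof plate and choroid plexus markers (151 to 958 and 125 to 193) overlapped between the end bins. Microglia, endothelium, meninges, oligodendrocyte lineage and red blood cell markers summed to at most 67.7 CPM in either end bin.

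Cells with at least 1 UMI of Barhl1 were examined separately. The gate does not name a cell type. Eomes, a T-box gene of unipolar brush cells, stood at 154 to 281 CPM in those without Atoh1. RL e13 replicate 1 had fewer than 20 such cells in each of its lower bins and was left out, so 3 libraries entered with 68 to 598 cells per bin. In these cells 15 of 15 S phase genes, 5 of 7 Wnt genes and 6 of 9 hedgehog genes rose with Atoh1, and 12 of 12 neuronal genes fell. Of 8274 genes 1929 (23.3%) rose and 2122 (25.6%) fell in limma, and the median slope was 0.00. Those shares are the background for each list here. With thinned cells 1401 rose and 1648 fell. Calls for Barhl2, Selm, Jun, Pax6, Tcf7l2, Cdk6, Cep290, Cdk1, Aurkb, Nusap1 and Igfbpl1 were lost when the e16 library was added.

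Pvalb, Fst, Gadd45g, Thsd7b, Sema7a and Nkd1 were the 6 risers named by slope. Pvalb went from 20.6, 33.1 and 11.7 CPM without Atoh1 to 792, 679 and 1222 in the top bin in RL e13 replicate 2, RL e14 replicate 1 and RL e14 replicate 2 (limma slope 1.67 ± 0.08, adjusted p = 6.3e-08). Nkd1, a Wnt feedback inhibitor gene, went from 211, 192 and 149 to 1150.5, 850.1 and 856 CPM (0.78 ± 0.03, adjusted p = 1.5e-08 in limma). For both genes the end bins did not overlap. Fst (1.25 ± 0.07), Gadd45g (1.0 ± 0.02), Thsd7b (0.99 ± 0.06) and Sema7a (0.87 ± 0.06) rose in 3 of 3 libraries.

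Of 10 described Atoh1 targets, Dll1 (0.87 ± 0.05), Rab15 (0.58 ± 0.03), Hes6 (0.54 ± 0.04) and Gli2 (0.24 ± 0.06) rose. Nhlh2 (-1.25 ± 0.05), Nhlh1 (-0.96 ± 0.03), Selm (-0.39 ± 0.03) and Barhl2 (-0.30 ± 0.09) fell. Dll3 (0.05 ± 0.04, adjusted p = 0.38) and Rassf4 (-0.09 ± 0.05, adjusted p = 0.15) did not pass in limma. The median slope of the targets was -0.02, and the call for Barhl2 was lost without RL e14 replicate 2.

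All 12 neuronal differentiation genes fell, beside 25.6% of all genes, with a median slope of -1.07. The microtubule-binding protein gene Mapt stood at 363, 399 and 582 CPM without Atoh1, at 118, 86 and 138 in the bin above 0 to 1, at 22.4, 20.7 and 21.9 in the next and at 14.7, 16.6 and 9.03 in the top bin. Each step was downward in all 3 libraries (limma slope -1.60 ± 0.06, adjusted p = 2.7e-08). Stmn4 (-1.61 ± 0.04), the neurofilament gene Nefl (-1.47 ± 0.06), the intermediate filament gene Ina (-1.46 ± 0.07), Sez6l2 (-1.42 ± 0.06) and the ankyrin gene Ank3 (-1.39 ± 0.04) were the other fallers named by slope.

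Of 9 proneural and related bHLH genes 6 fell, and Olig3 was among those that rose. Neurod1, a bHLH gene of differentiating granule cells, went from 190.2, 175 and 114 to 23.5, 14 and 10.2 CPM (-1.06 ± 0.04, adjusted p = 1.7e-08 in limma). Eomes and Pax6, a paired box gene, were named after their values had been seen. Eomes went from 183, 154 and 281 to 24.7, 15.5 and 10.2 CPM (-1.16 ± 0.08, adjusted p = 1.0e-06 in limma) and Pax6 from 459, 462 and 461 to 234, 321 and 203 (-0.32 ± 0.03, adjusted p = 2.0e-05). The end bins of these 3 genes did not overlap.

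All 15 S phase genes rose in the same cells, beside 23.3% of all genes, with a median slope of 0.45. Mcm6, a subunit gene of the replicative helicase, stood at 91.9, 112 and 65.5 CPM without Atoh1, at 205, 254 and 261 in the bin above 0 to 1, at 368, 371 and 334 in the next and at 382, 400.2 and 307 in the top bin (limma slope 0.65 ± 0.03, adjusted p = 3.5e-08). The top bin differed little from the one below it. Of 15 G2 and M phase genes Cdk1, Aurkb, Cenpe, Tpx2 and Nusap1 rose, with a median slope of 0.11. The slopes of Cdk1, Aurkb and Nusap1 were positive in 2 of 3 libraries, and their calls were lost without the filter on low values. With thinned cells the G2 and M count was 0 higher and 4 lower, whereas 14 S phase genes rose and 12 neuronal genes fell. Without RL e13 replicate 2 or RL e14 replicate 2 the G2 and M count was 1 higher, and without RL e14 replicate 1 it was 13. With a library block it was 0 in limma, where 2064 of all 8274 genes rose and 2304 fell. At an unadjusted limma p under 0.05 there were 4835 of all genes.

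Of 7 Wnt genes Wls, Lef1, Sp5, Nkd1 and Tcf7l2 rose, with a median slope of 0.39, and Axin2 and Znrf3 did not pass. Of 9 hedgehog receptors and targets Smo, Gli2, Gli3, Boc, Gas1 and Mycn rose, with a median of 0.24. Mycn, a Myc family gene and hedgehog target, averaged 79.3 CPM without Atoh1 and 200.4 in the top bin (0.41 ± 0.05, adjusted p = 5.0e-05 in limma). Gli3, a transcription factor gene of the pathway, averaged 9.99 and 27.9 CPM (0.37 ± 0.05), and the co-receptor gene Boc 33.8 and 63 (0.27 ± 0.04). Of 12 granule cell progenitor genes 8 rose, among them the cyclin gene Ccnd1 (0.63 ± 0.06) and the chemokine receptor gene Cxcr4 (0.54 ± 0.04), and Pax6, Zic1 and Zic2 fell.

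Of 11 genes of the cell cycle exit list 6 rose, most of them cyclin or kinase genes (Ccnd1, Ccnd2, Ccnd3, Cdk4, Cdkn1c and Gadd45g). The 4 that fell were Cdkn1b, Btg1, Cdk6 and the inhibitor gene Cdkn1a (-0.83 ± 0.08, adjusted p = 1.0e-05 in limma). Of 10 Notch genes Notch1, Dll1, Hey1, Hes6 and Mfng rose, and Hes5 and Dner fell. Of 8 BMP genes Bmpr1a, Smad7, Msx2 and Msx3 rose, and Bmpr2 and Smad1 fell. Of 5 E protein and Id genes Tcf3 and Id2 rose, and Tcf4 and Tcf12 fell. Of 7 described regulators of Atoh1 Ctnnb1 and Sox2 (0.40 ± 0.07, adjusted p = 7.0e-04 in limma) rose, and Zic1, Pax6 and Hes5 fell. Notch1, Msx2, Msx3 and Sox2 had fallen in all cells, and that difference was not tested. Of 9 cilium genes Cep290 rose and Kif3a fell, and the Cep290 call was lost without RL e13 replicate 2 or RL e14 replicate 1. Of 8 dissociation genes 6 fell, with a median slope of -0.23, and their part in the result was not tested.

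Cells with Sox2 and without Barhl1 were examined in the same way. RL e13 replicate 1, RL e13 replicate 2 and RL e14 replicate 1 had 3 or more bins of 20 or more such cells, and RL e13 replicate 1 alone had a top bin, of 23 cells. In these cells Gadd45g, Dll1 and Insm1 rose with Atoh1, and Nid1, Cdk6 and Ednrb fell. Of 8282 genes 146 (1.76%) rose and 265 (3.2%) fell in limma, and the median slope was -0.03. Those shares are the background for each list in these cells. Without the filter on low values limma called 0 of 15622 genes, with 2080 at an unadjusted p under 0.05. The calls below thus depend on that filter, and the cause was not tested. Leaving out RL e13 replicate 1 gave 206 risers and 407 fallers, and leaving out RL e14 replicate 1 gave 185 and 421. With thinned cells 115 rose and 226 fell, and 257 calls (62.5% of the 411) were shared.

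Gadd45g had the highest slope. It stood at 96.9, 86.9 and 87.8 CPM without Atoh1 in RL e13 replicate 1, RL e13 replicate 2 and RL e14 replicate 1, at 113, 191 and 177 in the bin above 0 to 1 and at 419, 699 and 1147 in the bin above 1 to 2. The third bin lay above both lower bins without overlap (limma slope 1.46 ± 0.10, adjusted p = 1.7e-05). Dll1, the Notch ligand gene, went from 18.5, 8.80 and 6.45 CPM without Atoh1 to 99.4, 84.1 and 94.7 in the bin above 1 to 2, and to 245 in the top bin of RL e13 replicate 1 (1.36 ± 0.09, adjusted p = 1.7e-05 in limma).

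Insm1, a zinc finger gene of newly committed neural progenitors, was at 10.1, 5.33 and 2.67 CPM without Atoh1, at 5.88, 4.43 and 9.85 in the bin above 0 to 1 and at 18.1, 55.4 and 97.4 in the bin above 1 to 2. It was low in both lower bins of every library (limma slope 1.27 ± 0.18, adjusted p = 0.0021). Igfbpl1 (1.18 ± 0.16), Rab15 (1.17 ± 0.11) and Gsg1l (1.07 ± 0.09) were the other risers named by slope. Hes6 (1.03 ± 0.06), Sp5 (0.88 ± 0.10), Nkd1 (0.83 ± 0.05), the neuronal bHLH gene Neurod2 (0.87 ± 0.17) and Olig3 (0.74 ± 0.09) also rose in 3 of 3 libraries. Olig3 went from 48, 11.3 and 5.34 to 174, 33.2 and 29.5 CPM in the bin above 1 to 2, with RL e13 replicate 1 highest in both.

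Pvalb (0.34 ± 0.19, adjusted p = 0.4) and Fst (0.32 ± 0.17, adjusted p = 0.39), which had the highest slopes in the other comparisons, did not pass in limma here and were named after their values had been seen. Their result depended on the libraries and on depth. Pvalb passed without RL e13 replicate 1 (slope 0.63, adjusted p = 4.0e-04), with adjusted p over its alternatives up to 0.99. Fst passed without RL e14 replicate 1 (slope 0.64) and with thinned cells (slope 1.10), with adjusted p over its alternatives from 2.3e-06 to 0.80. Whether slopes differed between the sets of cells was not tested.

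Cdk6, a kinase gene of G1 progression, went from 70.1, 81.6 and 95 to 14.9, 17.5 and 21.2 CPM (-1.01 ± 0.09, adjusted p = 7.0e-05 in limma). These bins did not overlap. Nid1 (-1.21 ± 0.15), the cadherin gene Cdh4 (-1.09 ± 0.16), Aldh1l1, a folate enzyme gene of glia (-1.09 ± 0.17), and Ednrb (-0.97 ± 0.09) were also among the fallers named by slope.

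Of 12 Notch genes Dll1, Hes6 and Mfng rose, and Lfng, Hes5 (-0.44 ± 0.06, adjusted p = 0.0023 in limma) and Nrarp (-0.97 ± 0.14, adjusted p = 0.0022) fell, with a median slope of -0.24. Of 7 E protein and Id genes Id4 (-0.96 ± 0.13, adjusted p = 0.0018) and Id1 (-0.39 ± 0.09, adjusted p = 0.029) fell, and the Id1 call was lost with TMM scaling, a pseudocount of 1 or a library block. Of 4 proneural and related bHLH genes Neurod2 and Olig3 rose. Of 10 Wnt genes Wls, Sp5 and Nkd1 rose, and Rspo1, Rspo3 and Znrf3 fell. Of 6 described Atoh1 targets Hes6, Dll1 and Rab15 rose and Rassf4 fell, while Gli2 (0.08 ± 0.11, adjusted p = 0.79) and Selm (0.07 ± 0.07, adjusted p = 0.7) did not pass in limma.

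Of 15 G2 and M phase genes Mki67, Top2a, Kif11 and Nusap1 fell, with a median slope of -0.30, and of 15 S phase genes 5 fell, with a median of -0.22. Mki67 went from 244, 234 and 194 CPM without Atoh1 to 189, 216 and 101 in the bin above 1 to 2 and to 70.9 in the top bin of RL e13 replicate 1 (-0.37 ± 0.08, adjusted p = 0.026 in limma). With thinned cells 8 G2 and M phase genes and 0 S phase genes fell in limma, and the Kif11 call was lost. The G2 and M count was 5 without RL e13 replicate 1, 11 without RL e13 replicate 2 and 12 without RL e14 replicate 1, and the S phase count 2, 1 and 9. None of 9 hedgehog genes and none of 7 neuronal differentiation genes passed in limma, where 1.76% of all 8282 genes rose and 3.2% fell. At an unadjusted limma p under 0.05 there were 1431 of all genes.

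The remaining lists held few calls in these cells. Of 12 granule cell progenitor genes Pax6 and Mfap4 rose and Ccnd1 fell, and of 11 BMP genes Smad7 rose and Gdf10 and Msx3 fell. Of 10 genes of the cell cycle exit list Gadd45g and Btg2 rose, and the cyclin gene Ccnd1 and the kinase gene Cdk6 fell. Of 6 described regulators of Atoh1 Pax6 rose and Hes5 fell, and of 9 cilium genes Cep290 fell. The calls for Pax6 and Ccnd1 were lost with thinned cells and without the 5% of cells with most UMIs, and that for Mfap4 with a gate of 2 UMIs. The call for Cep290 was lost without RL e13 replicate 1 or RL e13 replicate 2, with thinned cells and with TMM scaling, and that for Smad7 without RL e13 replicate 2 and with thinned cells. Of 8 dissociation genes Fos fell (-0.20 ± 0.05, adjusted p = 0.044 in limma), and the count was 4 without RL e13 replicate 1 and 3 without either of the others. The Fos call was lost with TMM scaling, a pseudocount of 1, bins scored by mean ln value or without the 5% of cells with most UMIs. The part of these genes in the result was not tested.

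**Figure D4:**
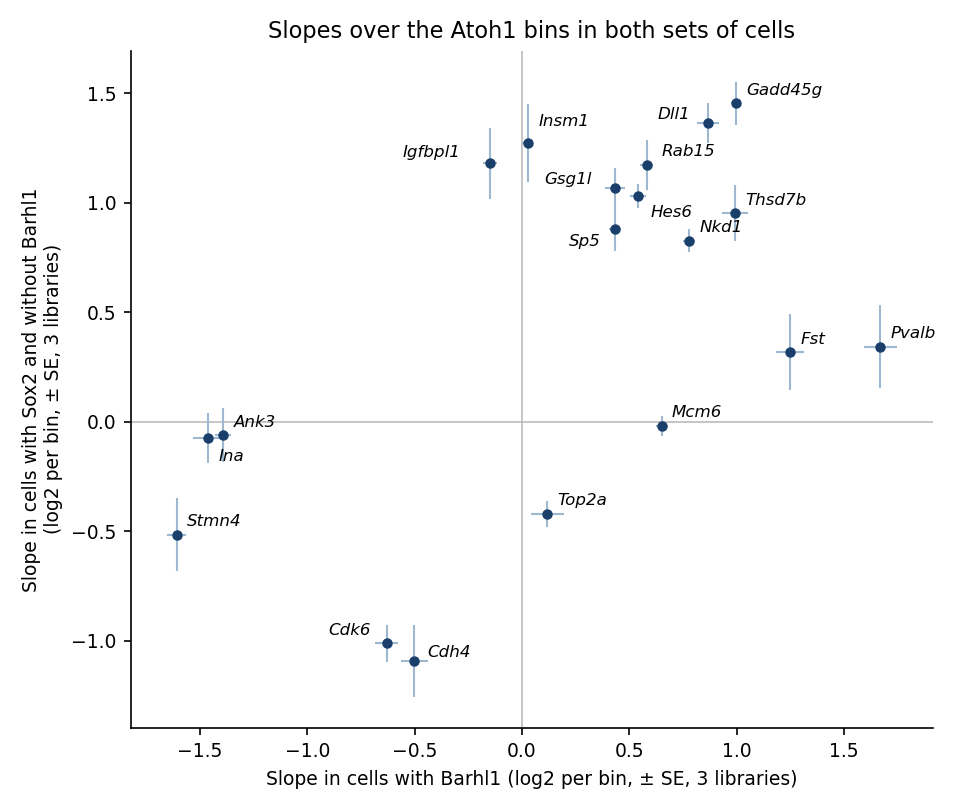
Slope per Atoh1 bin (log2, ± SE over 3 libraries) in cells with Barhl1 (x axis) and in cells with Sox2 and without Barhl1 (y axis) for 19 genes: those named by slope in either set and tested in both, and Hes6, Mcm6, Top2a and Sp5, chosen after their values had been seen. Gadd45g lies at 1.0 and 1.46, Mcm6 at 0.65 and -0.02, and Insm1 at 0.03 and 1.27.

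Insm1 and Igfbpl1, set side by side here after their values had been seen, rose in cells with Sox2 and without Barhl1 and were not called higher in cells with Barhl1. In cells with Barhl1, Insm1 averaged 537 CPM without Atoh1 and 585 in the top bin and did not pass (0.03 ± 0.03, adjusted p = 0.45 in limma). Igfbpl1 fell there (-0.15 ± 0.03, adjusted p = 0.0039 in limma), a call lost without RL e13 replicate 2 (adjusted p = 0.055, up to 0.90 over its alternatives). Among all genes tested in cells with Barhl1, 23.3% rose and 25.6% fell. Of the 146 genes that rose in cells with Sox2 and without Barhl1, 95 (65.1%) rose in cells with Barhl1 and 22 (15.1%) fell there. Those 95 were 4.93% of the 1928 that rose there. Of the 265 that fell in the Sox2 set, 90 (34.0%) fell in cells with Barhl1 and 64 (24.2%) rose there. Those 90 were 4.24% of the 2122 that fell there. These counts leave out the gating genes, 2 libraries entered both sets, and the difference between the sets was not tested.

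**Figure D5:**
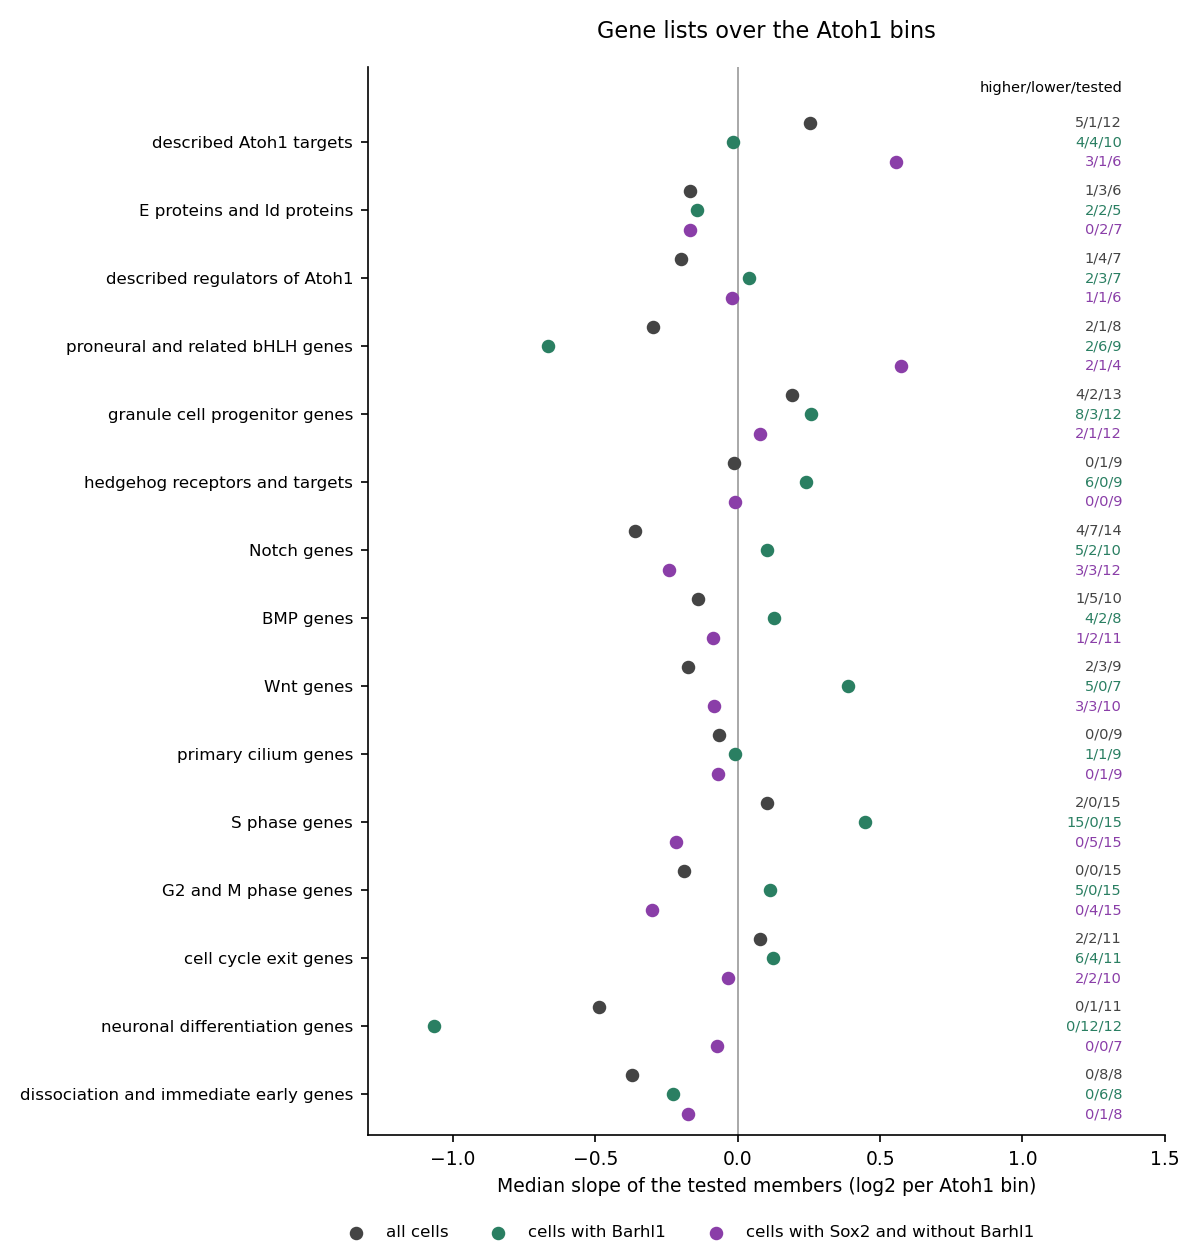
Median slope of the tested members of 15 gene lists (x axis, log2 per Atoh1 bin) in the 3 sets of cells, with the number higher, lower and tested. The neuronal differentiation genes in cells with Barhl1 lie at -1.07 and the S phase genes at 0.45, beside a median of all genes between -0.03 and 0.00.

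The e16 library was alone in its group, and its values are given without a test over 2400 cells without Atoh1, 238 above 0 to 1 and 38 above 1 to 2. Pvalb was at 1.40, 4.96 and 76.1 CPM in these bins, Fst at 0.198, 1.69 and 24.1 and Mki67 at 23.6, 123 and 179. Mapt stood at 1286, 752 and 329 CPM and Nefl at 587, 285 and 191. The e16 cells with most Atoh1 thus had more Pvalb, Fst and Mki67 and less Mapt and Nefl than those without it. Dll1, at 3.32, 1.67 and 2.68 CPM, showed no such order. Eomes was at 665, 543 and 495 CPM, and Otx2, a homeobox gene, at 491, 636 and 773. In the RL libraries Eomes averaged 74.4 CPM without Atoh1. It was at most 24.3 CPM in their top bin, which the e16 library lacked.

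The slopes of e14 and e13 libraries were compared, 2 against 2. limma called 0 of 8411 genes, with 961 (11.4%) at an unadjusted p under 0.05. For Pvalb the slopes were 0.92 and 1.67 at e13 and 1.51 and 1.47 at e14. For Hes6 they were 0.95 and 0.81 at e13 and 0.66 and 0.77 at e14. The e13 libraries differed from each other by more than the group means did for Pvalb, while for Hes6 both e13 slopes lay above both e14 slopes. With RL e13 replicate 2 counted as e14 by its age tag, 192 genes passed (31 steeper at e14 and 161 less steep), with RL e13 replicate 1 as the only e13 library. Leaving out RL e13 replicate 1 gave 116 and leaving out RL e13 replicate 2 gave 1226, where the lone e13 library is assumed to vary like the e14 libraries.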

How the data were processed

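Single-cell RNA from 4 rhombic lip libraries and 1 EomesCreER library of mouse cerebellum was deposited as 1 table of natural log (ln) values, 15971 genes by 6987 cells, made by the authors with a total of 10000 per cell. Cell Ranger and mm10 are named in the submitters' processing notes. No source used here gives the filters on cells and genes. The values were turned back into unique molecular identifiers (UMIs), and 100% of them came out whole within 0.01. A second deposited table names the library of each cell. No column was left unused, and no doublet caller was run.

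Cells were placed in 4 bins by the ln value of Atoh1. Mean counts per 1000000 UMIs (CPM) over the cells of a bin were used where it held 20 or more cells, in libraries with 3 or more such bins. The slope of log2(CPM + 5) on the bin number was taken per library for genes averaging at least 10 CPM, and tested with limma 3.58.1 in R 4.3.3, with Benjamini-Hochberg adjustment and a threshold of 0.05. The procedure was tested on simulated data. Clusters came from 2000 variable genes, 30 principal components, 20 neighbours and leidenalg 0.10.2 with igraph 0.11.9 at resolution 1, in Python 3.11.15, with 173 list genes left out. They were not given cell type names. Gene coordinates are those of GENCODE M21 for mm10 and promoter windows those of RefSeq.

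The genes named by slope were the 10 with the highest and the 10 with the lowest slopes (6 and 6 in the gated sets) among called genes whose slopes shared 1 sign across libraries and whose higher end bin reached 50 CPM. Up to 3 called members of each list, all described Atoh1 targets and the 8 genes most correlated with Atoh1 were also named. A few genes that the rule picks are not reported here. The 15 lists were described Atoh1 targets, E proteins and Id proteins, described regulators of Atoh1, proneural and related bHLH genes, granule cell progenitor, hedgehog, Notch, BMP, Wnt, primary cilium, S phase, G2 and M phase, cell cycle exit, neuronal differentiation, and dissociation and immediate early genes. The cell cycle exit list also held the cyclin genes Ccnd1, Ccnd2 and Ccnd3 and the kinase genes Cdk4 and Cdk6. Members and lists were chosen with earlier results of these data known.

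Alternatives were a pseudocount of 1, no filter, TMM scaling, end bins alone, bins scored by mean ln value, 50 cells per profile, cells thinned to 10000 UMIs, the 5% of cells with most UMIs left out, a library block, each library left out, the e16 library added, 2 UMIs for a gate, and the age tag of RL e13 replicate 2. Leaving out cells with Mki67 or Top2a was chosen after seeing the data.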

Additional observations from a re-analysis of the deposited data

Results flagged for a closer look

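Atoh1 was found in 10.3% of the cells of the EomesCreER e16 library, which entered none of the main comparisons. This library had no control of its own, and no background share from free RNA was set.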

How the results depend on the processing

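Of 166 gene results, 78 changed neither call nor direction under any alternative run. Over all alternatives and genes, 2128 values kept direction and call, 189 lost a call, 20 gained one and 5 reversed. With a library block, 949 genes rose and 1633 fell in all cells, and 254 and 477 in cells with Sox2 and without Barhl1. With the e16 library added, 103 rose and 216 fell in all cells, and 1226 rose in cells with Barhl1. Without the filter on low values, 0 rose and 0 fell in limma in cells with Sox2 and without Barhl1, with 2080 genes at an unadjusted p under 0.05. Leaving out each library in turn gave 68 to 780 risers and 142 to 1432 fallers in all cells, 1507 to 1646 and 1729 to 1942 in cells with Barhl1, and 139 to 206 and 296 to 421 in cells with Sox2 and without Barhl1. For e14 against e13 it gave 0 to 1226 genes, a difference in mean Atoh1 of -9.21 to 107 CPM and one in share of 3.11 to 23.4 percentage points. The age tag gave 192 genes, 109.8 CPM and 22.4 percentage points. In cells with Barhl1, thinning reversed Aurkb (-0.063), Cdk1 (-0.028) and Nusap1 (-0.066), adding the e16 library reversed Igfbpl1 (0.023), and a gate of 2 UMIs reversed Hes5 (0.15). The cause was not tested. Bins are paired by library, which the library block takes up. For e14 against e13, no paired analysis was run, because the labels do not pair any e14 library with an e13 library. In cells with Sox2 and without Barhl1, 50 cells per profile and leaving out cells with Mki67 or Top2a could not be fitted, and the e16 library was not added. The e16 library had 38 cells above an ln value of 1, and the only top bin of the Sox2 set held 23.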
